A study of Homo sapiens with 12 samples.

Results

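Interferon signalling and class I antigen presentation were followed in melanoma cells under RAF inhibition through a list of 46 genes: the receptors and their kinases, the transcription factors they act on, genes that interferon switches on, and the genes that load and display peptides on class I molecules. The list was made by gene name, with no threshold on measured values. A probe set that names a single gene was found for 44 of the 46, and where a gene had several, the one with the highest mean was used. STAT2 and IFI30 were not analysed here. Of the 44, 39 were bright enough to be tested, among 7178 tested of 11963 genes named on the array.

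Transcripts were measured on 12 Affymetrix arrays in 5 human melanoma cell lines: Malme3M, SkMel-1, SkMel-5, SkMel-19 and SkMel-28. All 5 carry the BRAF V600E mutation, which keeps the RAF, MEK and ERK kinase cascade active, so there was no group without it. Each line, growing in RPMI medium with serum, was treated for 8 h with 0.1% DMSO, the solvent, or with 250 nM PLX4032 (vemurafenib), which blocks RAF kinases. A dose of 1000 nM was given only to Malme3M and SkMel-19. A line had a single array at each dose. The 5 lines were therefore the replicates at 250 nM, 2 lines were the replicates at 1000 nM, and a line's level at any dose rests on 1 array.

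Type I interferons bind a receptor made of IFNAR1 and IFNAR2, and interferon-gamma binds one made of IFNGR1 and IFNGR2. JAK1 and TYK2 at the type I receptor, and JAK1 and JAK2 at the interferon-gamma receptor, are kinases that phosphorylate STAT proteins. The STAT proteins enter the nucleus, some of them together with IRF9, and bind interferon response elements or gamma-activated sites near their target genes. Among the targets are antiviral genes and the genes of class I presentation, in which proteasome peptides are carried into the endoplasmic reticulum by TAP1 and TAP2 and loaded onto HLA molecules bound to B2M, and melanoma cells with low class I expression are known to escape recognition by cytotoxic T cells.

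The array values are signals on a linear scale, and log2 changes are of the signal plus 11.6, which understates the change of dim genes. A gene was tested if its mean log2 level over the 12 arrays reached that of a signal of 85.5, and signals under 85.5 are called dim here. Tests are limma's, with the cell line as a block, and a gene was called at an adjusted p (Benjamini-Hochberg over the 7178 genes) under 0.05. Since 1 probe set was chosen per gene and probes differ in how well they bind, levels are compared between lines for a gene and not between genes.

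The labels were checked on these arrays. All 9 melanocyte lineage genes with a probe set passed the filter, with PMEL reaching a signal of 16214, and their summed signal lay between 40167 and 67163 in the DMSO arrays and between 54498 and 75830 at 250 nM. Markers of leukocytes were dim on all 12 arrays for 11 of 16 genes, with the actin-bundling gene LCP1 highest at 2264, and their sum ranged from 371 to 3055 in DMSO and from 313 to 3555 at 250 nM. The 4 markers of plasmacytoid dendritic cells, the main interferon producers of blood, were dim on every array. Fibroblast (5 of 10), keratinocyte (4 of 6) and endothelial (3 of 5) markers were also dim throughout in part, and the rest, such as CDH1, reached up to 5034. PTPRC, the pan-leukocyte antigen, reached at most 21.3 on any array, CD14 26.6, and the keratins KRT5 and KRT14 39.3 and 26.3. Other genes of the same lists were bright. The leukocyte marker CD79A had 510.5 under DMSO and 1015 at 250 nM in SkMel-1, and the keratin KRT10 ranged from 1993 to 4507 over the arrays. LCP1 was highest in SkMel-1 too (2200 under DMSO), the line in which the melanocyte gene TYRP1 was dim (18.7). Over DMSO and 250 nM arrays the sums ran from 639 to 2085 for fibroblast, 2294 to 7109.8 for keratinocyte and 58.0 to 624.5 for endothelial markers, and their part in the results was not tested. Of 12 genes listed as reporting ERK activity, 11 had a probe set and 10 were tested. All 10 fell at 250 nM, among them the ERK phosphatase DUSP6 (log2 change -5.05, SE 0.58, limma adjusted p = 0.000683). EPHA4, which did not pass the filter, was dim on 9 arrays and reached 204 on a treated array, against at most 134 under DMSO. The list was chosen with earlier results of these data known, so these falls are not an independent check of the drug.

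Transcripts of the interferons themselves were dim. Of 11 interferon and chemokine ligands with a probe set, among them IFNA1, IFNA2, IFNB1, IFNG and the interferon-induced chemokines CXCL9, CXCL10 and CXCL11, none passed the filter, and 9 were dim on all 12 arrays. The highest was the chemokine CCL5, with 258 in SkMel-28 under DMSO. IFNB1, the type I interferon of most non-immune cells, had DMSO signals of 3.5 in SkMel-1, 3.4 in SkMel-5, 3.3 in SkMel-28, 7.2 in SkMel-19 and 1.0 in Malme3M.

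Without the inhibitor, ISG20, BST2, TAP1 and IFI44 differed widely between the 5 lines. By the range of log2 levels, in which dim signals count as measured, 7 of the 8 widest of the 44 genes were interferon-stimulated genes and the other was TAP1. With dim signals raised to 85.5, a setting chosen after seeing the data, 4 of these 8 stayed, and IFITM2 (5.10-fold), IFI6 (4.87-fold), HLA-G (4.70-fold) and IFI16 (4.09-fold) took the place of OAS1, IFIT1, MX1 and TRIM22. For IFI16, highest in SkMel-28, another probe set had SkMel-28 lowest (392) and Malme3M highest (1038). For HLA-G, highest in Malme3M, another had SkMel-1 highest (3306) and Malme3M at 1469. The remaining probe sets of both genes kept the highest line. BST2 (tetherin, which holds budding virus particles at the cell surface) had a signal of 33.1 in SkMel-1, 7.4 in SkMel-5, 1538 in SkMel-28, 1284 in SkMel-19 and 744 in Malme3M under DMSO. It was bright in 3 lines and dim in SkMel-1 and SkMel-5, so that SkMel-28 stood at least 18.0-fold above the dim level, and the lines differed with a limma adjusted p of 2.99e-09 (moderated F test over 12 arrays). The 8 genes were picked for their range on DMSO arrays that this test also uses. Small p values between lines follow from that choice and are not separate support for it. IFI44 and IFIT1, each dim on 5 arrays, passed the filter through their bright lines. ISG20, an exonuclease that degrades viral RNA, had 73.2 in SkMel-1, 1946 in SkMel-5, 378 in SkMel-28, 164 in SkMel-19 and 1698 in Malme3M. Here SkMel-5, where BST2 was dim, was highest and SkMel-1 was dim, a range of at least 22.8-fold (limma adjusted p = 1.13e-06). Its other probe set gave the same order of the lines, from 5.4 in SkMel-1 to 1974 in SkMel-5.

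IFI44, an interferon-induced gene that accompanies antiviral states, was measured at 426 in SkMel-1, 14.7 in SkMel-5, 384 in SkMel-28, 23.7 in SkMel-19 and 128 in Malme3M. SkMel-1 and SkMel-28 were high and SkMel-5 and SkMel-19 dim (at least 4.99-fold, limma adjusted p = 2.99e-07). TAP1, a subunit of the peptide transporter, had 306 in SkMel-1, 400.1 in SkMel-5, 308 in SkMel-28, 41.5 in SkMel-19 and 566 in Malme3M. SkMel-19 alone was dim, and Malme3M was at least 6.62-fold above the dim level (limma adjusted p = 1.49e-07).

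The other 4 of the 8 were antiviral effectors. IFIT1, which binds viral RNA lacking the cap modification of host messages, read 123 in SkMel-1, 12.7 in SkMel-5, 213 in SkMel-28, 148 in SkMel-19 and 51.4 in Malme3M (limma adjusted p = 4.46e-06). OAS1, whose product activates RNase L, read 80.0 in SkMel-1, 18.4 in SkMel-5, 273 in SkMel-28, 131 in SkMel-19 and 88.8 in Malme3M. SkMel-28 was highest for both, and SkMel-5 was dim for both, with Malme3M dim for IFIT1 and SkMel-1 for OAS1. MX1, a GTPase that blocks incoming viral nucleocapsids, read 76.2 in SkMel-1, 21.5 in SkMel-5, 269 in SkMel-28, 33.8 in SkMel-19 and 151 in Malme3M, with SkMel-28 and Malme3M as the lines that were not dim. TRIM22, an antiviral ubiquitin ligase, was dim in SkMel-28, with 20.3 in SkMel-1, 142 in SkMel-5, 18.4 in SkMel-28, 44.4 in SkMel-19 and 194 in Malme3M. OAS1, MX1 and TRIM22 lay under the filter by their means and were not tested.

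With dim signals raised to 85.5, a single line was lowest in 12 of the 20 interferon-stimulated genes measured: SkMel-1 in 5, SkMel-5 in 3, Malme3M in 2, and SkMel-28 and SkMel-19 in 1 each. A single line was highest in 19 of them, SkMel-28 in 7 (36.8%, against 20.9% of all genes tested). In the 12 class I genes, SkMel-19 was the lowest in 6 (50%, against 16.3%) and Malme3M the highest in 7 (58.3%, against 21.6%). The first count includes HLA-B, HLA-C, HLA-F and HLA-G, and the second HLA-E, HLA-F and HLA-G, on the probe sets used. Their probe sets can bind each other's transcripts, so these are not counts of separate observations. Differences between lines were common on this array: 92.2% of all genes tested were called, and 37 of the 39 members (94.9%), all but IRF2 (limma adjusted p = 0.231) and USP18 (0.11). The median range over the lines was 1.11 on the log2 scale for the 39 members and 1.15 for all genes tested, and it exceeded 2 in 9 of the 39 (23.1%) and in 17.1% of all genes.

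**Figure D1:**
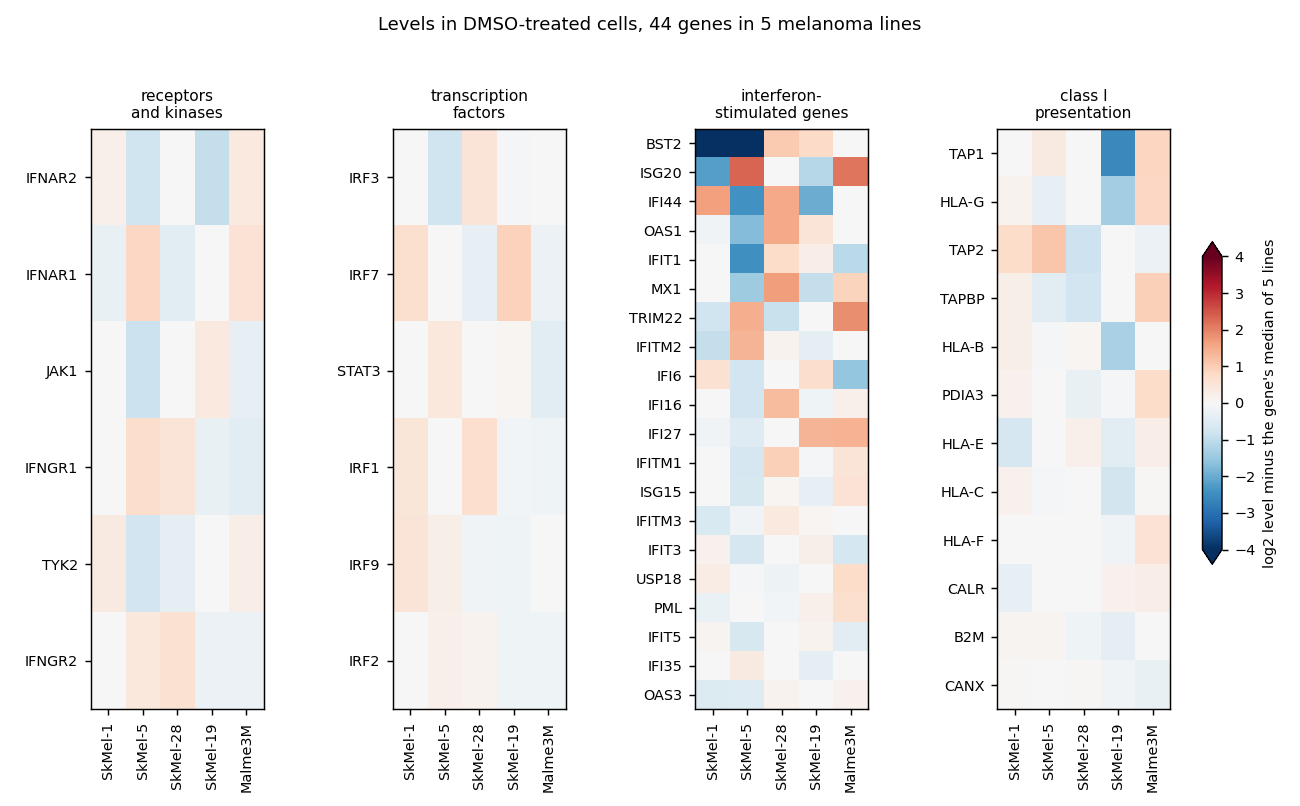
Colours show the log2 level of each of 44 genes in DMSO-treated cells of 5 lines, as the difference from that gene's median over the lines (red higher, blue lower; the scale ends at 4 in either direction), in 4 panels by role and ordered by range. BST2 is far below its median in SkMel-1 and SkMel-5, which are dim for it, and SkMel-19 is blue for TAP1, HLA-G and HLA-B.

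On the probe sets used, SkMel-19 was also the lowest line for HLA-B, HLA-C, HLA-F and HLA-G, but not for HLA-E. HLA-B had DMSO signals of 6618 in SkMel-1, 5502 in SkMel-5, 5939.8 in SkMel-28, 2298 in SkMel-19 and 5648 in Malme3M, and HLA-C had 7836 in SkMel-1, 6613 in SkMel-5, 6941 in SkMel-28, 4141 in SkMel-19 and 7105 in Malme3M. SkMel-19 stood apart from the other 4 lines in both, and it was the lowest line for B2M, the light chain, too (10559, 10508, 8676, 7372 and 9753 in the same order of lines). HLA-E, which presents signal peptides to natural killer cells, ran from 1972 in SkMel-1 to 3808 in Malme3M, and HLA-F from 2242 in SkMel-19 to 3719 in Malme3M. All 5 HLA genes rest on probe sets whose names end in _x_at, which can bind related transcripts, so their levels may be those of several HLA genes together. The same holds for the chosen probe sets of IFNAR2, IFI16, IFITM2, IFITM3 and CALR. For HLA-E, the other _x_at probe set had SkMel-19 lowest (725) and SkMel-28 highest (1343). The HLA-E probe set outside that kind had SkMel-1 lowest (260.5) and SkMel-28 highest (782). For HLA-F, the other _x_at probe set also had Malme3M highest (3870) and SkMel-19 lowest (1123). Its probe set outside that kind, under the filter by its mean, had Malme3M lowest (40.4), SkMel-19 at 58.3 and SkMel-28 highest (89.2).

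BST2, ISG20, IFI44 and TAP1, the widest by log2 range, held an interferon response element core in their promoters, and their sequences are shown as examples of it. Both strands of the RefSeq promoter windows (GRCh38.p14, 250 bases before to 50 after each start) were searched for the element's core, which is GAAA, any 2 bases and GAAA again (TTTC, any 2 bases and TTTC on the other strand), and for the gamma-activated site TTCNNNGAA, which is its own reverse complement. The stretches below show those cores in capitals with the bases around them, 5′ to 3′ on the strand of the gene; adjoining cores overlap in BST2 and TAP1, and in BST2 a match to TTCNNNGAA also overlaps the first core.
BST2, chr19:17405715-17405790, minus strand: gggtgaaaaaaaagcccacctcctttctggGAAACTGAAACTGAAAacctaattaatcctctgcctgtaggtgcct
ISG20, chr15:88638917-88638986, plus strand: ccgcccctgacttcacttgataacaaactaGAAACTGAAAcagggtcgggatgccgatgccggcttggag
IFI44, chr1:78649741-78649788, plus strand: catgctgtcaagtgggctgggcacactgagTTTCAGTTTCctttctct
TAP1, chr6:32853793-32853868, minus strand: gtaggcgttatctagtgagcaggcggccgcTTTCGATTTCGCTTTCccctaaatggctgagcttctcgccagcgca
The core was not particular to these 4. Of 36 members with a promoter in the table, 18 held it (50%), against 4.38% of 27305 genes. It was found in 13 of 17 interferon-stimulated genes and in 5 of 10 class I genes, and in 0 of 5 receptors and kinases and 0 of 4 transcription factors. TTCNNNGAA was found in 9 of the 36 (25.0%, against 9.38% of all genes), among them IRF9, 63 bases before its start, and IRF1, 124 bases before its start. IFITM2 has no entry in the table. A match says only that these letters are present.

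**Figure D2:**
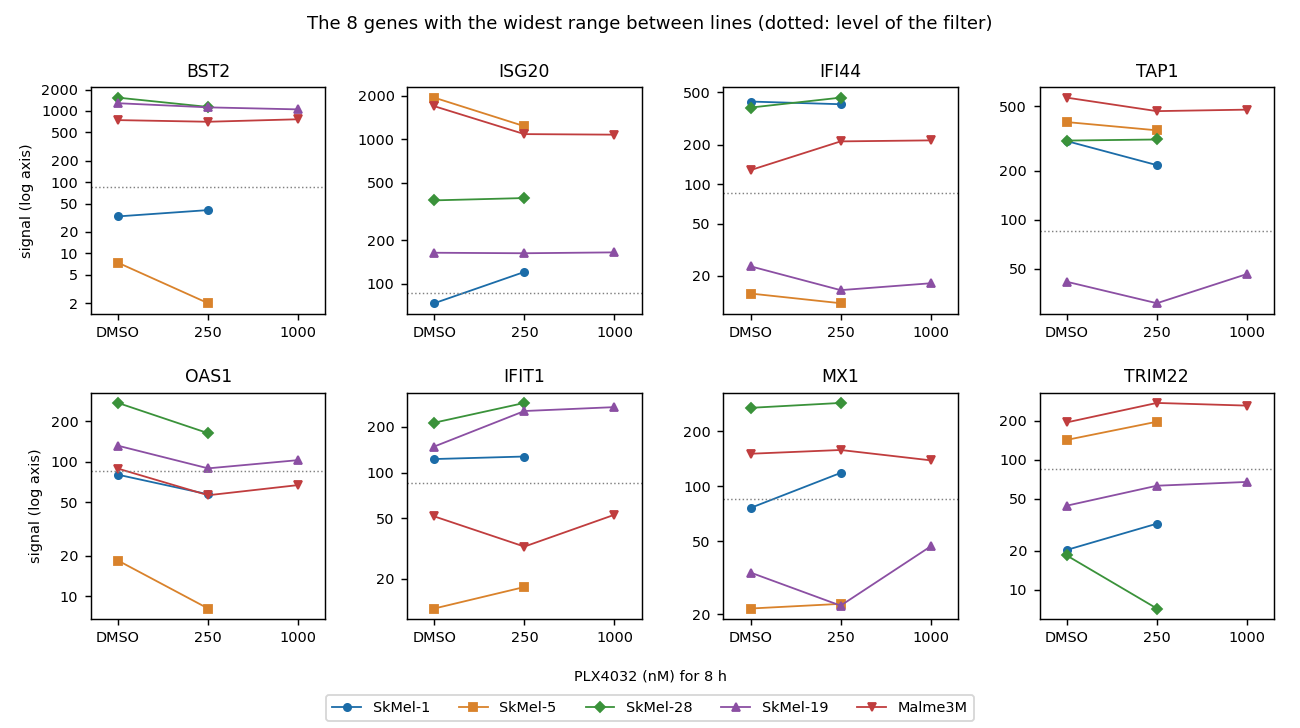
Signals (log axis) of the 8 genes with the widest range between lines, by dose of PLX4032 (0.1% DMSO, 250 nM and, in SkMel-19 and Malme3M, 1000 nM), with 1 line per cell line and 1 array per point; the dotted line is the signal of 85.5 that marks the filter. The order of the lines at DMSO is largely kept at 250 nM: BST2 stays between 705 and 1139 in the 3 bright lines and at 40.6 or less in SkMel-1 and SkMel-5.

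At 250 nM, members of every role were among the 9 called. Of the 39 members tested, 6 rose and 3 fell (23.1% called, against 28.3% of all 7178 genes tested, 15.2% higher and 13.1% lower), a share near that of all genes, and the members' median log2 change was 0.09 against 0.03 for all genes. By role, 4 of 6 transcription factors (66.7%) and 2 of 6 receptors and kinases (33.3%, near the 28.3% of all genes) were called. So were 1 of 15 interferon-stimulated genes (6.67%) and 2 of 12 class I genes (16.7%). The difference between the roles was not tested. Left out in turn, SkMel-1, SkMel-28, SkMel-19 or Malme3M each lowered the count of members from 9 to 5, and SkMel-5 lowered it to 7. In the same fits the count over all genes fell from 2028 to between 1284 (without SkMel-19) and 1835 (without SkMel-5). IRF9, IRF7, STAT3 and IFNGR2 were called in each of them.

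The largest change among the receptors was in IFNGR2, the chain of the interferon-gamma receptor that brings JAK2 to the complex. Its DMSO signal was 2776 in SkMel-1, 3724 in SkMel-5, 4268 in SkMel-28, 2361 in SkMel-19 and 2363 in Malme3M, and at 250 nM it was 959.7 in SkMel-1, 2412 in SkMel-5, 1916 in SkMel-28, 1843 in SkMel-19 and 1008 in Malme3M. Every line was lower with the inhibitor, SkMel-1 most and SkMel-19 least, and the ranges of the groups overlapped only because SkMel-5 at 250 nM remained above SkMel-19 and Malme3M at DMSO. The mean log2 change was -0.97, SE 0.15 (a 1.96-fold fall over 5 lines with a limma adjusted p of 0.00251). Its partner IFNGR1, which binds the ligand, had a log2 change of 0.14, SE 0.11 (limma adjusted p = 0.349), with 3 lines higher and 2 lower.

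IFNAR1, a chain of the type I interferon receptor, rose. Signals were 71.3 in SkMel-1, 168 in SkMel-5, 63.4 in SkMel-28, 89.3 in SkMel-19 and 139.9 in Malme3M under DMSO, and 127 in SkMel-1, 194 in SkMel-5, 95.4 in SkMel-28, 116 in SkMel-19 and 181 in Malme3M at 250 nM. All 5 lines were higher, with overlapping ranges, and SkMel-1 and SkMel-28 started at dim signals. The log2 change was 0.43, SE 0.13 (limma adjusted p = 0.0341). The call was lost without SkMel-1 (0.35, limma adjusted p = 0.0965), SkMel-28 (0.41, 0.0804), SkMel-19 (0.45, 0.0704) or Malme3M (0.45, 0.071), and in the fit on all 11963 genes (limma adjusted p = 0.0762). IFNAR2, the other chain, had a log2 change of -0.12, SE 0.10 (limma adjusted p = 0.368), and neither kinase passed: JAK1 was at 0.09, SE 0.07 and TYK2 at -0.01, SE 0.10.

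Among the transcription factors, IRF9 changed most. IRF9 is the DNA-binding subunit of the complex that reads type I interferon signals. It had 450.3 in SkMel-1, 369 in SkMel-5, 277 in SkMel-28, 273 in SkMel-19 and 309.7 in Malme3M under DMSO and 800.3 in SkMel-1, 601 in SkMel-5, 492 in SkMel-28, 425 in SkMel-19 and 546 in Malme3M at 250 nM. Every line was higher, by 0.62 in SkMel-19 to 0.81 in SkMel-1 on the log2 scale, so the lines moved by similar amounts although the ranges of the groups overlapped. The mean log2 change was 0.74, SE 0.08 (1.67-fold, limma adjusted p = 0.000602). By p, IRF9 ranked 90 of the 7178 genes.

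STAT3, which carries signals of the interleukin-6 family and of growth factors, had signals of 1279 in SkMel-1, 1734 in SkMel-5, 1270.0 in SkMel-28, 1348 in SkMel-19 and 928 in Malme3M under DMSO and 1602 in SkMel-1, 2477 in SkMel-5, 2173 in SkMel-28, 1558 in SkMel-19 and 1293 in Malme3M at 250 nM. It was higher in 5 of 5 lines, most in SkMel-28 (log2 change 0.46, SE 0.09, 1.37-fold, limma adjusted p = 0.00638), and its other probe set gave 0.28. IRF7, which drives type I interferon genes after infection, had 247 in SkMel-1, 154 in SkMel-5, 120.4 in SkMel-28, 303 in SkMel-19 and 128 in Malme3M under DMSO and 349 in SkMel-1, 189 in SkMel-5, 214 in SkMel-28, 377 in SkMel-19 and 178 in Malme3M at 250 nM. It was higher in 5 of 5 lines with overlapping ranges, and SkMel-28 again changed most (log2 change 0.45, SE 0.11, 1.37-fold, limma adjusted p = 0.0161).

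IRF2, which binds the same elements as IRF1 and mostly opposes it, fell. Signals were 208 in SkMel-1, 243 in SkMel-5, 231 in SkMel-28, 183 in SkMel-19 and 181 in Malme3M under DMSO and 187 in SkMel-1, 139.6 in SkMel-5, 152 in SkMel-28, 140.0 in SkMel-19 and 114 in Malme3M at 250 nM. SkMel-1 changed least, and its 250 nM signal was the only one above any DMSO signal (log2 change -0.49, SE 0.12, 1.40-fold lower, limma adjusted p = 0.0178). The call was lost without SkMel-5 (-0.42, limma adjusted p = 0.0531), SkMel-28 (-0.47, 0.0533) or Malme3M (-0.45, 0.0518). IRF1, the activator induced by interferon-gamma, had a log2 change of -0.23, SE 0.14 (limma adjusted p = 0.251) with signals between 66.1 and 170.5 on the 12 arrays. IRF3, the factor activated by RNA and DNA sensors, had -0.15, SE 0.08 (limma adjusted p = 0.191), lower in 5 of 5 lines.

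**Figure D3:**
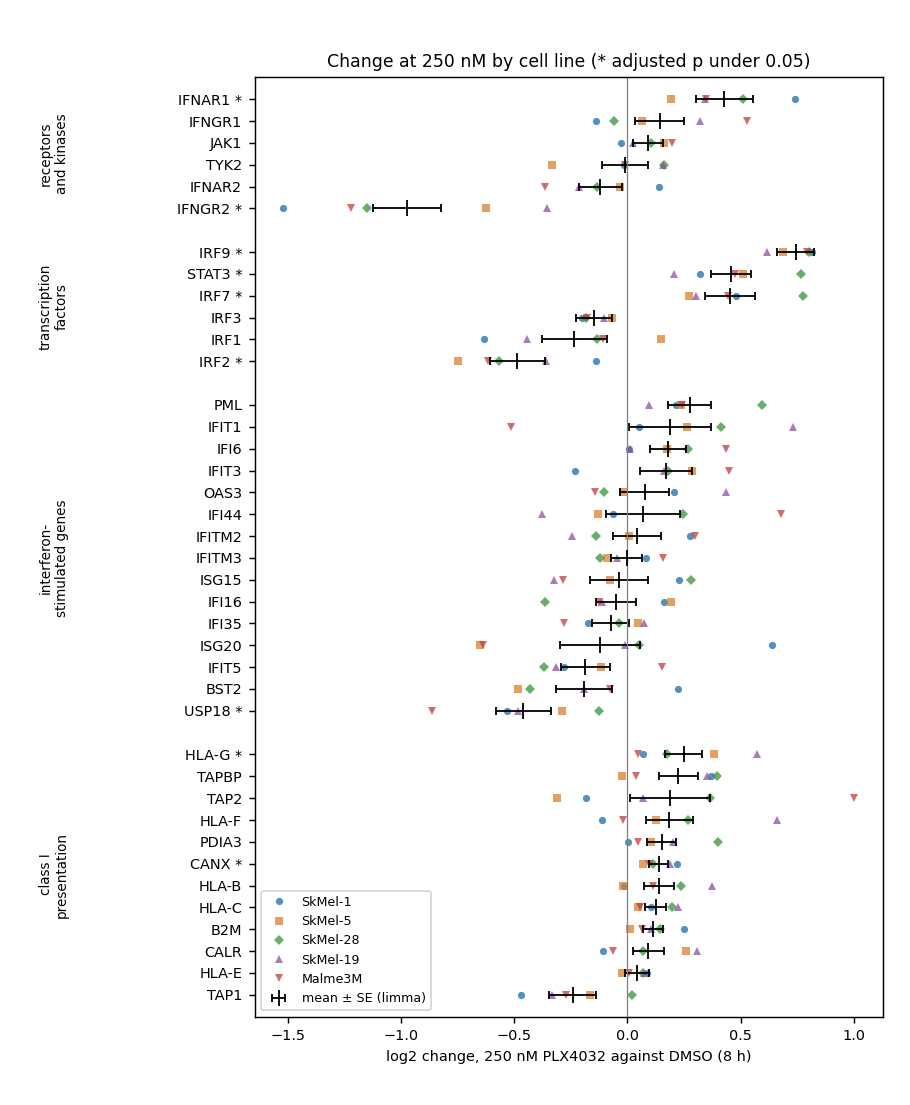
Log2 change at 250 nM PLX4032 against DMSO in each of 5 lines (coloured symbols) for the 39 members tested, grouped by role, with the limma mean and its standard error in black and an asterisk where the adjusted p was under 0.05. IRF9 lies between 0.62 and 0.81 in every line, IFNGR2 is below 0 in every line, and most interferon-stimulated genes have symbols on both sides of 0.

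The interferon-stimulated genes showed no shared direction at 250 nM. Of the 15 tested, 1 was called, the median log2 change was -0.004, and 7 had a positive mean change. The gene called was USP18, a protease that removes ISG15 from proteins and restrains the type I interferon receptor. Its signals were 285 in SkMel-1, 222 in SkMel-5, 201 in SkMel-28, 231 in SkMel-19 and 388 in Malme3M under DMSO and 193 in SkMel-1, 180.1 in SkMel-5, 183 in SkMel-28, 162 in SkMel-19 and 208 in Malme3M at 250 nM. Every line was lower, Malme3M most and SkMel-28 least, and only Malme3M at 250 nM exceeded a DMSO signal of another line (log2 change -0.46, SE 0.12, 1.38-fold lower, limma adjusted p = 0.0237). The call was lost without SkMel-1 (-0.44, limma adjusted p = 0.0641), SkMel-19 (-0.45, 0.0671) or Malme3M (-0.36, 0.0769), and in the fit on all 11963 genes (limma adjusted p = 0.0501).

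ISG15, the ubiquitin-like protein that USP18 removes, had 184 in SkMel-1, 115 in SkMel-5, 194 in SkMel-28, 144 in SkMel-19 and 284 in Malme3M under DMSO and 218 in SkMel-1, 108 in SkMel-5, 238 in SkMel-28, 113 in SkMel-19 and 230.3 in Malme3M at 250 nM, with 2 lines higher and 3 lower. BST2 had a log2 change of -0.19, SE 0.12 and ISG20 one of -0.12, SE 0.18, both with lines on either side of 0. IFI44 (0.07, SE 0.16) and IFIT1 (0.19, SE 0.18) did not pass either, and IFIT1 ranged from -0.51 in Malme3M to 0.73 in SkMel-19. Another probe set gave the opposite sign for ISG20 (0.25) and for IFIT5 (0.15, against -0.19 on the probe set used), each smaller than its standard error of 0.31 and 0.18.

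Of the remaining genes of this role, 2 had changes of the same sign in every line without being called. PML, the scaffold of nuclear bodies, was higher in 5 of 5 lines (0.28, SE 0.10, limma adjusted p = 0.0582), and so was IFI6, which acts against apoptosis and viral replication (0.18, SE 0.08, limma adjusted p = 0.125). OAS3 (0.08, SE 0.11), IFIT3 (0.17, SE 0.12), the DNA sensor IFI16 (-0.05, SE 0.09), IFI35 (-0.07, SE 0.08) and the entry inhibitors IFITM2 (0.04, SE 0.11) and IFITM3 (-0.004, SE 0.07) did not pass. OAS1, below the filter, had signals of 57.2 in SkMel-1, 8.1 in SkMel-5, 163 in SkMel-28, 89.2 in SkMel-19 and 56.3 in Malme3M at 250 nM, each lower than the DMSO signal of the same line. In the fit on all 11963 genes its log2 change was -0.56, with a limma adjusted p of 0.0346, and 3 of its 5 signals at 250 nM were dim. MX1, TRIM22, IFITM1 and IFI27, also below the filter, had limma adjusted p values between 0.536 and 0.838 in that fit, and IFI27 was dim on all 12 arrays.

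Among class I presentation genes 2 of the 12 tested were called, HLA-G and CANX, and both rose. In all, 11 of the 12 had a positive mean log2 change, as had 55.7% of all genes tested, and the median was 0.14 against 0.03. The 5 HLA genes, on probe sets that can bind each other's transcripts, are not 5 separate observations. HLA-G, an HLA molecule that inhibits natural killer cells, had 4272 in SkMel-1, 3055 in SkMel-5, 3853 in SkMel-28, 1472 in SkMel-19 and 6921 in Malme3M under DMSO and 4481 in SkMel-1, 3981 in SkMel-5, 4347 in SkMel-28, 2196 in SkMel-19 and 7158 in Malme3M at 250 nM. It was higher in 5 of 5 lines, most in SkMel-19, by amounts smaller than the range between lines (log2 change 0.25, SE 0.08, limma adjusted p = 0.0484). Its 3 other probe sets gave 0.14, -0.01 and -0.16, so the direction depended on the probe set. The call was lost without any 1 of SkMel-1, SkMel-5, SkMel-28 and SkMel-19 (limma adjusted p from 0.052 to 0.133). CANX, the chaperone calnexin that holds new heavy chains, had 7783 in SkMel-1, 7533 in SkMel-5, 7809.7 in SkMel-28, 6876 in SkMel-19 and 6171 in Malme3M under DMSO and 9066 in SkMel-1, 7909.7 in SkMel-5, 8451 in SkMel-28, 7834 in SkMel-19 and 6594 in Malme3M at 250 nM. It was higher in 5 of 5 lines, the smallest change among the members called (log2 change 0.14, SE 0.04, limma adjusted p = 0.0404). The call was lost without any 1 of the 5 lines (limma adjusted p from 0.0521 to 0.111) and with arrays centred on their medians (0.11, limma adjusted p = 0.116).

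The classical class I chains were not called at 250 nM. HLA-C was higher in 5 of 5 lines (0.13, SE 0.05, limma adjusted p = 0.0704), as was B2M (0.11, SE 0.04, limma adjusted p = 0.0815), and HLA-B in 3 (0.14, SE 0.07, limma adjusted p = 0.148). HLA-E had 0.04, SE 0.05 and HLA-F 0.18, SE 0.10. Other probe sets differed in part. Those of HLA-B gave 0.19 and 0.18, higher in 5 of 5 lines, and those of HLA-C were higher in 4, 4 and 5 lines. Those of HLA-E gave -0.05 and, outside the _x_at kind, 0.17 with 5 of 5 lines higher. TAPBP, or tapasin, which ties HLA molecules to the transporter, had 0.23, SE 0.09 (limma adjusted p = 0.0797), and without SkMel-5, the 1 line that was lower, it was called. The oxidoreductase PDIA3, which works with calnexin, was higher in 5 of 5 lines (0.15, SE 0.06, limma adjusted p = 0.105).

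On the probe sets used, the transporter subunits had mean changes of opposite sign, and neither passed. TAP1 had signals of 217 in SkMel-1, 356 in SkMel-5, 313 in SkMel-28, 30.6 in SkMel-19 and 467 in Malme3M at 250 nM, lower than under DMSO in 4 of 5 lines (-0.24, SE 0.11, limma adjusted p = 0.115). TAP2 had 0.19, SE 0.18, with Malme3M about 1.00 higher on the log2 scale and SkMel-5 0.31 lower. Another TAP2 probe set over the filter gave -0.04, SE 0.15, the sign of TAP1, and one under the filter gave 0.24, SE 0.22. The sign for TAP2 therefore depended on the probe set. CALR, or calreticulin, had 0.09, SE 0.07, but its probe set outside the _x_at kind gave -0.17 and was lower in 5 of 5 lines.

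**Figure D4:**
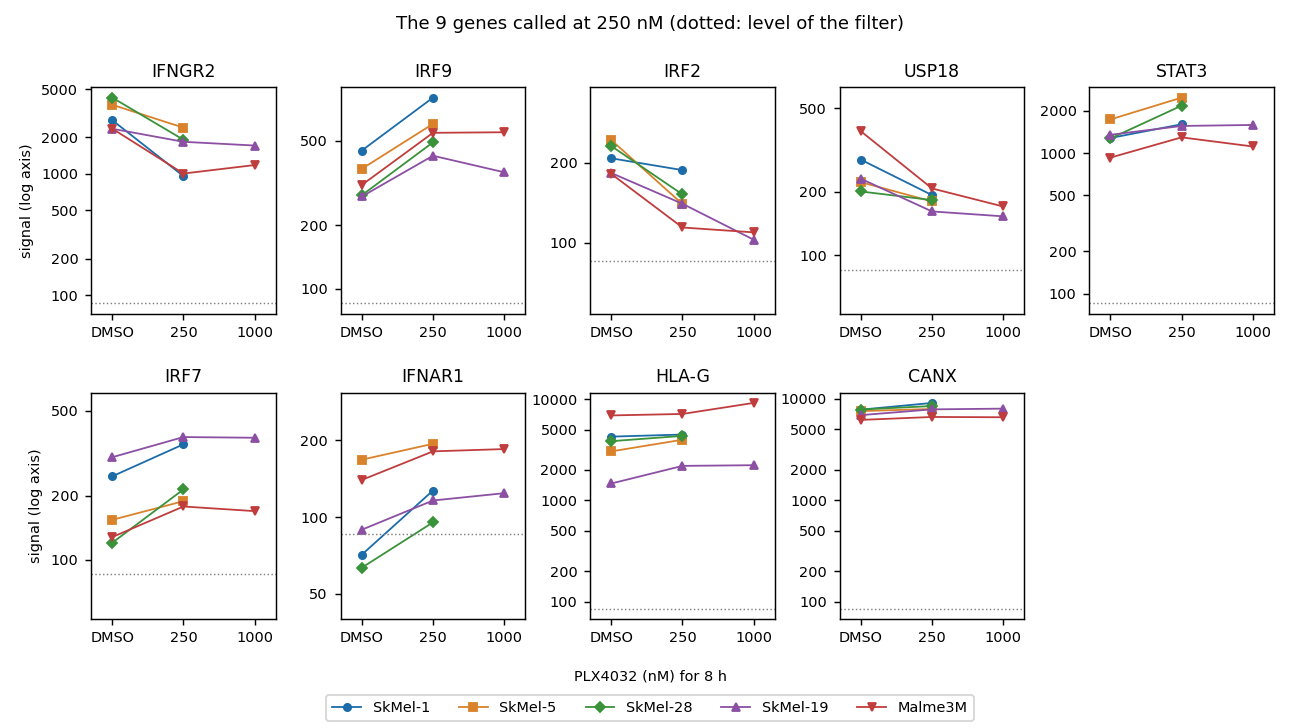
Signals (log axis) of the 9 members called at 250 nM, by dose of PLX4032, with 1 line per cell line and 1 array per point; the dotted line marks the filter signal of 85.5. Lines for IFNGR2, IRF2 and USP18 descend and those for the other 6 ascend from DMSO to 250 nM in all 5 cell lines, with small slopes for HLA-G and CANX.

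At 1000 nM, measured in SkMel-19 and Malme3M, 1 of the 39 members was called (2.56%, against 11.2% of all genes tested, 5.29% higher and 5.88% lower). This was USP18, with 153 in SkMel-19 and 171 in Malme3M, below both its DMSO and its 250 nM signal in each line (log2 change -0.85, SE 0.18, over 2 lines with a limma adjusted p of 0.0409). Taken alone, with no test, Malme3M gave -1.13 and SkMel-19 -0.56, so the mean leans on Malme3M. This call was lost with every gene tested (limma adjusted p = 0.0848), with dim signals raised to 85.5 (0.0598) and without limma's trend (0.0508). Members short of the threshold were IRF2 (-0.72, SE 0.17, limma adjusted p = 0.0519), HLA-G (0.50, SE 0.13, 0.0561), IRF9 (0.59, SE 0.15, 0.0566) and IFNGR2 (-0.72, SE 0.20, 0.0672). With all 12 arrays in 1 fit, which borrows its error from the 5 lines, these 4 and USP18 were called (limma adjusted p from 0.0143 to 0.0326).

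Other members called at 250 nM can be set beside their 1000 nM signals. IFNGR2 had 1716 in SkMel-19 and 1184 in Malme3M, IRF9 356 in SkMel-19 and 549 in Malme3M, IRF2 103 in SkMel-19 and 109 in Malme3M and STAT3 1584 in SkMel-19 and 1114 in Malme3M. IRF9 in SkMel-19 was lower at the higher dose, 356 against 425, while in Malme3M it was 549 against 546. Between the doses 0 of 7178 genes were called by limma (0%), 75 had an unadjusted p under 0.05, and none of these was a member. The members with the smallest p were IFITM3 (-0.25, SE 0.14), IFIT3 (-0.33, SE 0.20) and IFI6 (-0.23, SE 0.14), each with a limma adjusted p of 0.999. With 2 lines, a difference between the doses of the size of these changes was not detectable. Comparisons with DMSO at both doses share the DMSO arrays of SkMel-19 and Malme3M.

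Other genes of the pathway were taken from lists made by function, to be read against the 28.3% of all genes called at 250 nM. Of 11 further signalling genes and regulators, 2 rose at 250 nM (18.2% called): IRF4, a factor of lymphocytes and pigment cells, with 763 in SkMel-1, 2475 in SkMel-5, 1100.4 in SkMel-28, 474 in SkMel-19 and 1888 in Malme3M under DMSO and 1624 in SkMel-1, 3382 in SkMel-5, 1642 in SkMel-28, 1306 in SkMel-19 and 3071 in Malme3M at 250 nM (0.85, SE 0.14, limma adjusted p = 0.0028), and JAK2, the kinase that IFNGR2 binds (0.45, SE 0.11, limma adjusted p = 0.016). IRF4 was higher in 5 of 5 lines, most in SkMel-19, and it was the 1 gene of this list called at 1000 nM (1.06, SE 0.18, limma adjusted p = 0.0196). Of 8 RNA and DNA sensing genes, 1 fell (12.5% called), the Toll-like receptor adaptor MYD88 (-0.28, SE 0.08, limma adjusted p = 0.0285).

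Of 25 further interferon-stimulated genes, 3 rose and 2 fell (20% called, below the 28.3% of all genes). BTN3A1, a butyrophilin seen by gamma-delta T cells, rose most (0.60, SE 0.13, limma adjusted p = 0.00937), then WARS1, a tryptophanyl-tRNA synthetase induced by interferon-gamma (0.42, SE 0.11, limma adjusted p = 0.0205), and the nuclear body gene SP100 (0.34, SE 0.10, limma adjusted p = 0.0346). The ADP-ribosyltransferase PARP12 fell (-0.49, SE 0.09, limma adjusted p = 0.0058), and so did the phospholipid scramblase PLSCR1 (-0.30, SE 0.08, limma adjusted p = 0.0215). Of 21 further class I genes, 2 were called (9.52%). CREB1, a factor that binds class I promoters among many others, rose (0.45, SE 0.09, limma adjusted p = 0.00804), and PSME3, the proteasome activator that interferon does not induce, fell (-0.23, SE 0.05, limma adjusted p = 0.0146).

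Several surface ligands of lymphocytes fell. Of 8 immune checkpoint and natural killer ligands tested, 4 fell and none rose (50% called, against 28.3% of all genes, median log2 change -0.35). ICAM1, the adhesion molecule that binds the lymphocyte integrin LFA-1, had 1071 in SkMel-1, 775 in SkMel-5, 2303 in SkMel-28, 707 in SkMel-19 and 767 in Malme3M under DMSO and 457 in SkMel-1, 451 in SkMel-5, 1402 in SkMel-28, 414 in SkMel-19 and 189 in Malme3M at 250 nM. It was lower in 5 of 5 lines, most in Malme3M (-1.08, SE 0.17, limma adjusted p = 0.00285), and was called at 1000 nM as well (-1.47, SE 0.29, limma adjusted p = 0.0323). PVR, a ligand of DNAM-1 and TIGIT (-0.60, SE 0.11, limma adjusted p = 0.00622), MICA, a stress ligand of the receptor NKG2D (-0.38, SE 0.09, limma adjusted p = 0.013), and CD58, a ligand of the T cell molecule CD2 (-0.31, SE 0.08, limma adjusted p = 0.0209), fell too.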

How the data were processed

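Per the submitters' processing notes, the authors made the deposited table with the Affymetrix software GCOS. It holds 1 intensity per probe set and array, linear and as deposited, for 22277 probe sets on 12 arrays; probe summary, background treatment and software version are not given in the sources used here. With the top and bottom 2% trimmed, the mean signal was 500.1 on every array, and the medians lay between 102.5 and 130.4.

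The 62 control probe sets were set aside. Genes came from the platform annotation (19064 probe sets with 1 symbol, 19052 of them matched by Entrez ID). The intensities were taken to log2 after adding 11.6, the 20th percentile, and genes were tested where the mean reached the 40th percentile. Fits used limma 3.58.1 in R 4.3.3 with a trended prior. The 250 nM fit used 10 arrays (4 residual degrees of freedom), both 1000 nM comparisons 6 arrays (2), and the test between lines 12 arrays with dose as a factor. In the dose comparisons, p-values rest on the spread of the change between these lines. In the test between lines they rest on the spread left after line and dose, with a line's arrays at different doses as its replicates. Each line had 1 array per dose. The block pairs arrays of the same cell line, as labelled: after subtracting group means, arrays of a line correlated at 0.898 to 0.932, and arrays of different lines at no more than -0.134. Steps were tested on simulated data. The number of arrays limits the precision.

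The members and the other lists were chosen with earlier results of these data known. Described with statistics were members called at 250 nM (up to 20), the 8 with the widest DMSO range, members called at 1000 nM or between doses or else the 3 with the smallest p, and up to 4 called genes of each other list; other members were described by role. Promoters came from RefSeq (GRCh38.p14; 36 of 46 members matched, 11 with several windows), shown for up to 4 called or wide-ranging members with an upstream match. Dim-level folds set the lowest line at a signal of 85.5. Alternatives were other pseudocounts, filters, scalings, probe set choices, no trend, no block, and each line left out. Plots used matplotlib 3.10.9 (Python 3.11.15).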

Additional observations from a re-analysis of the deposited data

Results flagged for a closer look

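Of 102 sets of 5 lines examined (levels under DMSO and changes at 250 nM of the genes described), 8 had 1 line far from the other 4, and chance alone gives about 1 in 20. Under DMSO, SkMel-19 stood below the other lines in HLA-B (11.17 on the log2 scale), HLA-C (12.02) and TAP1 (5.73), and Malme3M stood above them in HLA-F (11.87). The HLA-F value is from an _x_at probe set. A probe set of HLA-F outside that kind, under the filter by its mean, had Malme3M lowest (a signal of 40.4). In the change at 250 nM, TRIM22 was lower in SkMel-28 (-0.67), where both of its signals were dim, while the other 4 lines were higher. SP100 rose most in Malme3M (0.73) and WARS1 in SkMel-1 (0.97). PLSCR1 was lower in 4 lines and at 0.042 in SkMel-28.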

How the results depend on the processing

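The other settings that were run kept the direction of the members called at 250 nM and 1000 nM, although single other probe sets of HLA-G gave -0.01 and -0.16 at 250 nM. IRF9, STAT3, IFNGR2 and IRF7 kept their calls at 250 nM in every alternative with the cell line as a block, IRF2 in 11 of 15, USP18 in 10 of 15, IFNAR1 in 9 of 15, CANX in 6 of 16 and HLA-G in 3 of 15. With no replicate block, where differences between lines enter the error, 13 genes and 0 members were called at 250 nM, and 0 genes and 0 members at 1000 nM. A filter at the 60th percentile left 5 members called at 250 nM. Leaving out 1 line gave 1284 to 1835 genes and 5 to 7 members called at 250 nM (1284 without SkMel-19 and 1338 without Malme3M), and 6052 to 6343 genes and 33 to 36 members between lines. Of the members not called at 250 nM, quantile normalization added PML and leaving out SkMel-5 added TAPBP.

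At 1000 nM the count over all genes moved from 802 to 451 with no filter on dim genes, 461 with dim signals raised to the filter level and 519 without limma's trend. Members called there were 0 with no filter, with the filter at the 60th percentile and with dim signals raised, 2 (IRF2 and USP18) with the mean over probe sets or without _x_at probe sets, and 5 with all 12 arrays in 1 fit. Without the trend the 1 member called was IRF2 and not USP18. The cause of these moves was not tested. Leaving out a line at 1000 nM leaves 1 line and no test: USP18 was at -1.13 without SkMel-19 and -0.56 without Malme3M. Signals near or under the filter level limit the size of changes in IFNAR1, IRF1, IFIT1, OAS1 and the other dim genes.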

Other observations

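Class II presentation genes, which display peptides to helper T cells and which melanoma lines express to very different degrees, differed widely between lines. Of the 8 tested, 7 were highest in SkMel-28 under DMSO and the other, the protease CTSL, in SkMel-5. The filter is a mean over 12 arrays, so a gene can pass mainly through SkMel-28, which favours that line in this count. HLA-DRB1, dim on 7 of the 12 arrays, had 5488 in SkMel-28 and a median of 46.8 under DMSO. Without the filter and with dim signals raised to its level, 12 of the 14 measured had a single highest line. It was SkMel-28 in 11 of them (91.7%, against 20.9% of all genes tested) and SkMel-5 in 1. Of the 14 measured, 2 were dim in SkMel-28 (CIITA and HLA-DQA1). Under DMSO, CD74, the invariant chain, had a signal of 11996 in SkMel-28, 2065 in SkMel-5, 334 in Malme3M, 21.8 in SkMel-1 and 3.5 in SkMel-19. HLA-DRA was at 8739 in SkMel-28 and 233 in SkMel-5, and dim in the other 3 lines. The class II master regulator CIITA was dim under DMSO in all 5 lines, with 53.6 in SkMel-28. At 250 nM, 0 of the 8 class II genes tested were called by limma and 0 had an unadjusted p under 0.05. The smallest p values were those of HLA-DRB1 (log2 change 0.24, SE 0.14, limma adjusted p = 0.204) and HLA-DMA (0.24, SE 0.13, limma adjusted p = 0.206), each higher in 4 of 5 lines.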
